A study of Mus musculus with 24 samples.

Results

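The subunits, activators, inhibitor and assembly chaperones of the proteasome were described across 6 groups of MIN6 libraries. Their genes were taken by symbol, as every listed gene whose symbol starts with Psma, Psmb, Psmc, Psmd, Psme, Psmf or Psmg, which gave 50 of the 17696 genes listed. Psmb8, Psmb9, Psmb10, Psme1 and Psme2, which interferon is known to induce, were set against the other 45. By symbol alone, the rule also takes Psmc3ip, a factor of meiotic recombination, Psme3ip1, a partner of the nuclear activator Psme3, and Psme2b, a retrocopy of Psme2, whereas Psma8, the α subunit of testis, was not analysed here.

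MIN6 cells are an insulinoma line of mouse β cells. Stable lines had been made by lentiviral transduction, puromycin selection and expansion of single clones, and each was measured by bulk mRNA sequencing in 4 libraries without and 4 libraries with cytokines. The Scr line carries a scrambled control and the ZIP line an antisense inhibitor of miR-146a-5p, both in the miRZip backbone with copGFP, whereas the OE line overexpresses miR-146a-5p from the shMIMIC backbone with TurboRFP. Groups marked +Cy received IL-1β at 5 ng/ml, IFNγ at 100 ng/ml and TNFα at 10 ng/ml over 24 h. Construct, clone and, for OE, backbone and fluorescent protein cannot be told apart, and the level of mature miR-146a-5p is not among the values analysed. No source says that the 4 libraries of a group came from separate cultures, so that p-values cover the spread between libraries, which may be technical.

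The proteasome degrades ubiquitin-tagged proteins in a barrel, the 20S core, whose outer rings of α subunits (Psma) gate the entry and whose inner rings of β subunits (Psmb) cut the chain. The 19S cap, with ATPases (Psmc) and non-ATPase subunits (Psmd), recognises, unfolds and feeds in substrates. Cells exposed to interferon build an alternative core, the immunoproteasome, in which the catalytic subunits Psmb5, Psmb6 and Psmb7 are replaced by Psmb8, Psmb9 and Psmb10, and cap it with the 11S activator made of Psme1 and Psme2. This form is known for making peptides that MHC class I molecules present, and β cells under inflammatory stress are known to induce it.

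Each library held 26657792 to 37168232 reads assigned to genes (median 30701023), of which the 50 members took 0.326% to 0.658%. Levels are CPM, each library's reads scaled to a common total with TMM factors, and differences are log2 fold changes ± standard error from edgeR's quasi-likelihood model of all 24 libraries. A difference was called at a Benjamini-Hochberg adjusted p under 0.05 over all genes. At least 10 reads were present in every library for 48 of the 50 members, the exceptions being Psmb9 and Psmb11. As labelled, the cells expressed β cell genes, the summed level of 8 markers (Ins1, Ins2, Iapp, Pdx1, Nkx6-1, Mafa, Slc2a2 and Chga) ranging from 22833 to 50403 CPM. The summed level of Ptprc, Cd68 and Itgam, the leukocyte markers listed, ranged from 0.589 to 4.49 CPM.

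Without cytokines, Scr cells held the constitutive core at high levels and the inducible catalytic subunits at much lower ones. Per kilobase of transcript, the 7 constitutive β subunits ranged from 53.7 ± 1.83 CPM/kb for Psmb1 to 124 ± 6.30 CPM/kb for Psmb4 (mean ± SD, n = 4), with a median of 92.8 CPM/kb. Levels of the inducible catalytic subunits were 5.77 ± 0.981 CPM/kb for Psmb8, 2.71 ± 0.579 CPM/kb for Psmb10 and 1.93 ± 0.725 CPM/kb for Psmb9. By the reads assigned to each gene, the 11S activator lay between both, Psme1 at 22 ± 1.92 CPM/kb and Psme2 at 12.2 ± 1.28 CPM/kb. The place of Psme2 is uncertain, because its reads could not be separated fully from those of its retrocopy Psme2b. In Scr the levels of Psme2 and Psme2b summed to 57.2 ± 3.11 CPM, of which 18.8% to 23.2% was assigned to Psme2. The 7 α subunits had a median of 73.0 CPM/kb, the 6 ATPases of 66.9 CPM/kb, the 14 non-ATPase subunits and chaperones of 49.1 CPM/kb and the 4 assembly chaperones of 15.7 CPM/kb.

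Cytokines raised each of the 5 inducible genes in each of the 3 lines, and no library with cytokines overlapped one without. Among all genes, 10.5%, 13.6% and 23.0% were called higher in Scr, ZIP and OE, and the share without overlap was not computed. Psmb8, which replaces the chymotrypsin-like subunit Psmb5, stood at 8.50, 8.74, 11.8 and 8.55 CPM in Scr replicates 1 to 4 and at 316, 375, 392 and 373 CPM in Scr+Cy. The rise was 38.8-fold (log2 5.28 ± 0.25, edgeR adjusted p = 4.88e-14). The lowest Scr+Cy library lay far above the highest Scr library.

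Psmb9, which replaces the caspase-like subunit Psmb6, went from 2.40, 2.16, 4.03 and 1.83 CPM in Scr to 126, 131, 138 and 142 CPM in Scr+Cy. This was a 51.8-fold rise (log2 5.69 ± 0.20, edgeR adjusted p = 1.15e-16). Psmb10, which replaces the trypsin-like subunit Psmb7, was at 2.99, 3.54, 4.63 and 3.04 CPM in Scr and 138, 167, 181 and 161 CPM in Scr+Cy. All 3 catalytic genes thus went from a few CPM to over 100 CPM, the rise of Psmb10 being 45.7-fold (log2 5.51 ± 0.19, edgeR adjusted p = 1.54e-16).

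The 11S activator genes, which started from higher levels, rose less. For Psme1 the values were 24.5, 22.4, 27.4 and 23.7 CPM in Scr and 162, 185, 206 and 192 CPM in Scr+Cy, a 7.59-fold rise (log2 2.92 ± 0.10, edgeR adjusted p = 1.47e-16). For Psme2 they were 10.6, 12.9, 10.8 and 12.8 CPM and 55.1, 68.4, 73.3 and 69.9 CPM, a 5.67-fold rise (log2 2.50 ± 0.10, edgeR adjusted p = 8.83e-16). Both genes of the ring rose together, and in Scr+Cy replicate 1 each of the 5 inducible genes had its lowest level of the group. Without that library the log2 rises were 5.34 for Psmb8, 5.72 for Psmb9, 5.58 for Psmb10, 2.99 for Psme1 and 2.59 for Psme2.

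**Figure D1:**
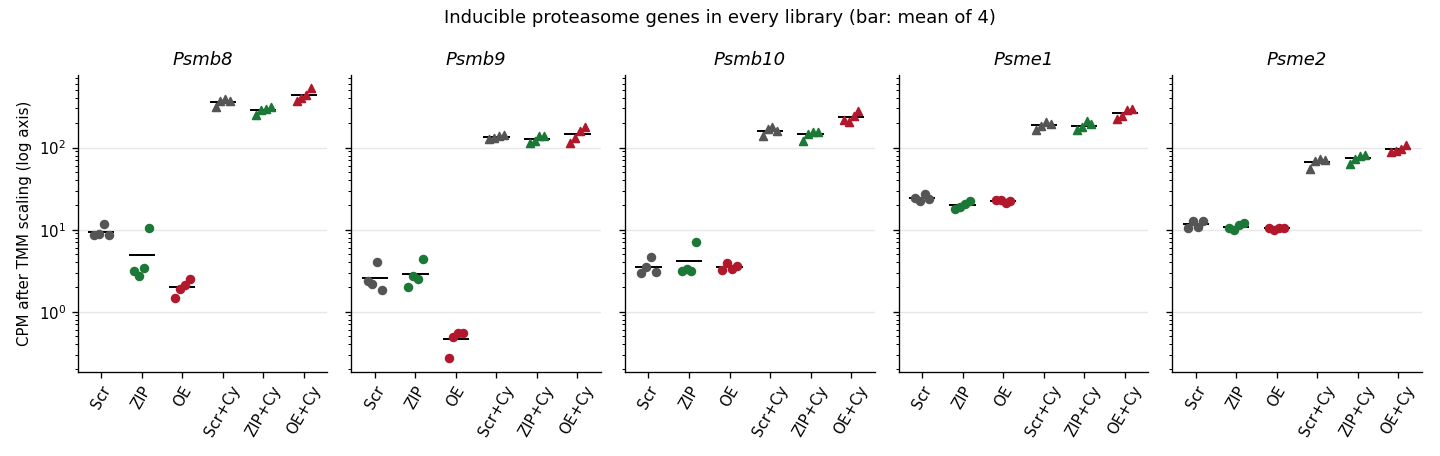
Levels of Psmb8, Psmb9, Psmb10, Psme1 and Psme2 in CPM (log axis) in the 6 groups, each point 1 library and each bar the mean of 4. Psmb9 lies between 0.272 and 0.557 CPM in OE and between 115 and 179.6 CPM in OE+Cy, and ZIP replicate 4 stands above the other ZIP libraries for Psmb8 (10.5 CPM) and Psmb10 (7.16 CPM).

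In the ZIP line the catalytic genes rose from similarly low levels. Psmb8 stood at 3.15, 2.74, 3.44 and 10.5 CPM in ZIP and 248, 288, 293 and 317 CPM in ZIP+Cy (log2 5.84 ± 0.27, edgeR adjusted p = 1.91e-14), so that 1 of the 4 libraries without cytokines was well above the others. Psmb9 stood at 2.01, 2.70, 2.51 and 4.37 CPM and 114, 121, 140.2 and 137 CPM (log2 5.46 ± 0.20, edgeR adjusted p = 2.25e-16). Psmb10 stood at 3.15, 3.28, 3.13 and 7.16 CPM and 121, 145, 157 and 157 CPM (log2 5.11 ± 0.19, edgeR adjusted p = 5.05e-16), again with replicate 4 the highest of the ZIP libraries. That library was also the highest of its group for Psmb9, Psme1 and Psme2. Left out, it moved the rise of Psmb8 to 6.52 on the log2 scale, that of Psmb9 to 5.73 and that of Psmb10 to 5.51. Psme1 rose by 3.21 ± 0.10 and Psme2 by 2.76 ± 0.10 on the log2 scale (edgeR adjusted p = 5.73e-17 and 2.25e-16).

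In the OE line the same genes rose, Psmb8 and Psmb9 from the lowest mean of the 3 lines. Psmb8 went from 1.48, 1.90, 2.12 and 2.49 CPM in OE to 373, 405, 440.0 and 529 CPM in OE+Cy, a 219-fold rise (log2 7.77 ± 0.30, edgeR adjusted p = 3.77e-16). Psmb9 went from 0.272, 0.490, 0.552 and 0.557 CPM to 115, 130.0, 161 and 179.6 CPM, a 310.1-fold rise (log2 8.28 ± 0.24, edgeR adjusted p = 3.34e-18). Psmb10 went from 3.23, 3.97, 3.28 and 3.64 CPM to 215, 208, 243 and 279 CPM, a 66.8-fold rise (log2 6.06 ± 0.20, edgeR adjusted p = 1.76e-17). The start of Psmb10 was thus like that in Scr, whereas those of Psmb8 and Psmb9 were lower. Psme1 went from 23.0, 22.7, 21.2 and 22.6 CPM to 220.2, 242, 284 and 299.6 CPM (log2 3.55 ± 0.10, edgeR adjusted p = 3.39e-18), and Psme2 from 10.4, 9.96, 10.6 and 10.5 CPM to 88.9, 91.7, 97.1 and 109 CPM (log2 3.22 ± 0.10, edgeR adjusted p = 6.76e-18).

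Whether the cytokine response differed between lines was tested as an interaction, the response of ZIP or OE minus that of Scr. The response of OE was larger for 4 of the 5 inducible genes. The excess on the log2 scale was 2.49 ± 0.36 for Psmb8 (edgeR adjusted p = 4.33e-05), 2.58 ± 0.36 for Psmb9 (3.21e-05), 0.62 ± 0.14 for Psme1 (0.00223) and 0.72 ± 0.13 for Psme2 (0.000504). For Psmb10 it was 0.55 ± 0.27 and did not pass (0.159). Psmb8 and Psmb9 were lower in OE than in Scr without cytokines (log2 −2.23 and −2.46) and not called with cytokines (0.26 and 0.12). Psme1 and Psme2 were not called without cytokines and were higher in OE with them (0.49 and 0.54). Over all 50 members, the response of OE minus that of Scr was called as positive for 6 and as negative for 3, where 20% of all genes were called (9.64% positive and 10.3% negative). At the study's limits 5 responses were larger, Psmb8, Psmb9, Psme1, Psme2 and Psme2b, beside 12.1% of all genes. The other 5 called at the adjusted limit were Psme2b and Psmd10, which rose more in OE, and Psme4, Psmd6 and Psmd13, which fell in OE and did not pass in Scr.

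For ZIP, 0 of 50 members passed the interaction test in edgeR or in DESeq2, where 0.0565% of all genes were called in edgeR (0.0509% positive and 0.00565% negative), and 5 members had an unadjusted p under 0.05 in edgeR. Psmb8 had the largest estimate of the inducible genes, 0.57 ± 0.33 (edgeR adjusted p = 0.847). Without ZIP replicate 4 that estimate was 1.24 and passed (0.00866), which made 1 member called. No member (0) was called at the limits of the study, beside 3.29% of all genes. The estimates were −0.23 ± 0.28 for Psmb9, −0.40 ± 0.26 for Psmb10, 0.29 ± 0.14 for Psme1 and 0.26 ± 0.13 for Psme2.

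The promoters of 4 genes that rose are shown, 250 bases before the annotated start site and 25 after it, from RefSeq on GRCm38.p6, 5′ to 3′ on the strand of the gene, because Psmb8 and Psmb9 are neighbours that rose together and because Psme1 and Psmg4 share an element at their start. Capitals mark a match to the interferon regulatory factor element (GAAA, any 2 bases, GAAA) or to the GAS element TTCNNNGAA, known from interferon-γ responsive promoters, both searched on both strands. Coordinates are chr17:34197945-34198219 on the plus strand for Psmb8, chr17:34187306-34187580 on the minus strand for Psmb9, chr14:55578244-55578518 on the plus strand for Psme1 and chr13:34162714-34162988 on the plus strand for Psmg4.
Psmb8: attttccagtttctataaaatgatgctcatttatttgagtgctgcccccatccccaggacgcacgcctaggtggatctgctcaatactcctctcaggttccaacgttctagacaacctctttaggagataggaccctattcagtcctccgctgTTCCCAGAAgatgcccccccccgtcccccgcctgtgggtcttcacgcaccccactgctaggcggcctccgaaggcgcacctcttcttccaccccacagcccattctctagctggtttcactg
Psmb9: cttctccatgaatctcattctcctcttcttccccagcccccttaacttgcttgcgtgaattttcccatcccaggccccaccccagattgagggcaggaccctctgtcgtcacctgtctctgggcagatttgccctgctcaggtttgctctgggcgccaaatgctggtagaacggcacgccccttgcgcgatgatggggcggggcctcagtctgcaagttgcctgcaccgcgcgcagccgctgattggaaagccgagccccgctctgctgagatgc
Psme1: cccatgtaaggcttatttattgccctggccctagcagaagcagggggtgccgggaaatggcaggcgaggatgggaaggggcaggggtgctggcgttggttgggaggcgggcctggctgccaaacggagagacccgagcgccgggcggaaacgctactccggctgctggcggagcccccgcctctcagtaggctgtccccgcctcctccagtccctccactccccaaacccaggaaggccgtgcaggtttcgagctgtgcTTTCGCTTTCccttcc
Psmg4: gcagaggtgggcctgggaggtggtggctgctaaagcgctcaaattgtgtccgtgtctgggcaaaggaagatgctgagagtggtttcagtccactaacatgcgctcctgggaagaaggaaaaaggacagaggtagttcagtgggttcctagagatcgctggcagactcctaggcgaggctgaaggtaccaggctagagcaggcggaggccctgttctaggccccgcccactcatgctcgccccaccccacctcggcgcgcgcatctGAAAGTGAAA
In Psmb8 the GAS match began 97 bases before the start site. An interferon regulatory factor match began 9 bases after the start site in Psme1 and 15 bases after it in Psmg4, and neither element was in the window of Psmb9. The start of Psmb9 lay 226 bases from that of the peptide transporter gene Tap1, which is read in the other direction, and 10865 bases from that of Psmb8. Psme1 and Psme2 are neighbours on chromosome 14 with start sites 12607 bases apart. Of the 43 members with a promoter in the table used, 5 held the interferon regulatory factor element (Psmb3, Psmd4, Psmd9, Psme1 and Psmg4), as did 3.44% of all 32851 promoters. The GAS element was in 3 (Psmb8, Psmd2 and Psmg1), beside 8.30% of all promoters. Of the 6 promoters of the inducible genes, 1 held the interferon regulatory factor element and 1 the GAS element, and those of Psmb9, Psmb10 and Psme2 held neither. These counts are over windows of 300 bases, 250 before the start site and 50 after it, of which the sequences above show the first 275, and a match describes letters only.

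Set against the subunit each replaces, the inducible catalytic genes went from a small fraction of the constitutive level to a similar or higher one. Per kilobase of transcript, the Psmb8 level was 0.0901 times that of Psmb5 in Scr and 3.34 times in Scr+Cy (log2 ratio of CPM without length correction −2.62 ± 0.31 and 2.60 ± 0.10, SD, n = 4). In ZIP the ratio per kilobase was 0.0422 without and 2.62 with cytokines, and in OE 0.0148 and 3.43. Of the 3, only Psmb8 lay above its partner by more than 2-fold in each cytokine group.

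The Psmb9 level stayed just under that of Psmb6 per kilobase, with ratios after cytokines of 0.861 in the Scr, 0.818 in the ZIP and 0.718 in the OE line, up from 0.0168, 0.0201 and 0.00221. Without length correction Psmb9 lay above Psmb6 after cytokines, with mean log2 ratios of 0.54, 0.47 and 0.28. Which gene was higher thus depends on the lengths used, each that of the annotated transcript with the longest coding part. Psmb10 passed Psmb7, at 1.26, 1.14 and 2.03 times its level in the same order, from 0.0288, 0.0336 and 0.0289. The 4 libraries of OE+Cy spread more widely than those of Scr+Cy for Psmb9 against Psmb6 (SD of the log2 ratio 0.29 against 0.06) and for Psmb10 against Psmb7 (0.27 against 0.11).

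**Figure D2:**
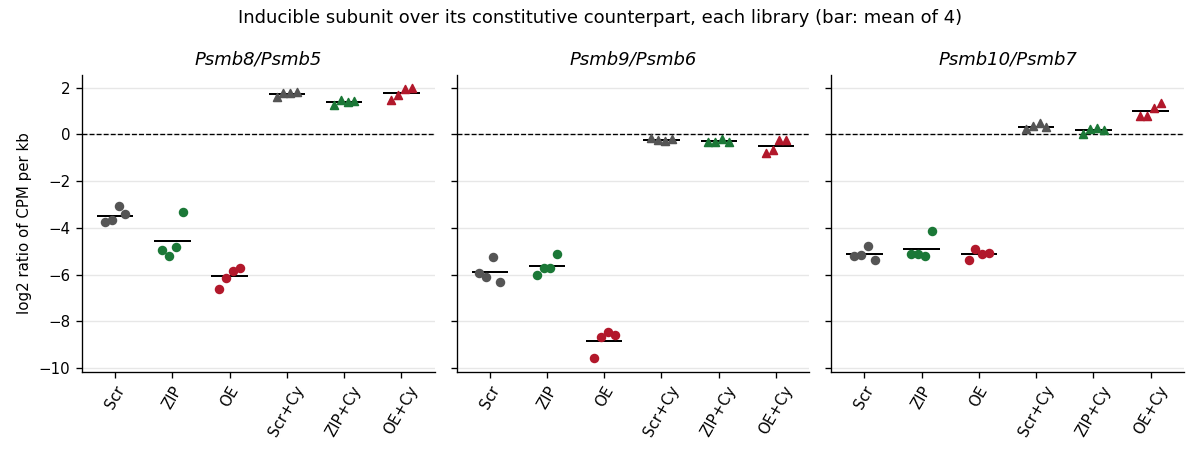
Log2 ratio of the level per kilobase of Psmb8 to Psmb5, Psmb9 to Psmb6 and Psmb10 to Psmb7, each point 1 library, in the 6 groups, with the dashed line at equal levels. All libraries without cytokines lie below the line, and with cytokines the mean lies at 1.74, 1.39 and 1.78 for Psmb8/Psmb5 and at −0.22, −0.29 and −0.48 for Psmb9/Psmb6 in Scr+Cy, ZIP+Cy and OE+Cy.

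The constitutive partners themselves moved little. Psmb5 was at 63.2, 60.8, 54.2 and 50.7 CPM in Scr and 58.0, 60.2, 63.1 and 59.0 CPM in Scr+Cy, groups that overlapped (log2 0.07 ± 0.07). Psmb6 was at 86.1, 86.2, 89.7 and 86.6 CPM and 82.9, 91.8, 98.4 and 95.8 CPM (log2 0.08 ± 0.06). Psmb7 was at 96.4, 111, 113 and 110.5 CPM and 105, 116, 115 and 115 CPM (log2 0.07 ± 0.06). None of the 3 passed in Scr or OE, where the log2 differences of the latter were −0.07, −0.02 and −0.08, and in ZIP only Psmb6 did (0.18 ± 0.06, edgeR adjusted p = 0.0431). That call was lost without ZIP replicate 1, 2 or 3 or ZIP+Cy replicate 3 or 4 (0.0694 to 0.177) and in a fit of both groups alone (0.0938).

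Over all 50 members, 20 rose and 0 fell in Scr+Cy, where 17.8% of all 17696 genes were called (10.5% higher and 7.33% lower). In the ZIP line 32 rose and 0 fell, beside 26.4% of all genes called (13.6% higher and 12.8% lower), and 19 rose without ZIP replicate 1 or 20 without ZIP+Cy replicate 4. In the OE line 20 rose and 6 fell, beside 44.6% of all genes (23.0% higher and 21.5% lower). Outside the inducible genes, 15, 27 and 15 of 45 members rose in Scr, ZIP and OE, with median log2 fold changes of 0.09, 0.20 and 0.07, beside 0.00, −0.01 and 0.02 over all genes. Among these, 11 rose in all 3 lines, namely 6 of the 7 α subunits, Psmb4, Psmd7, Psmf1, Psmg4 and Psme2b. With the replicate number as a block Psmd4 also rose in Scr (log2 0.14, adjusted p = 0.0338), and so in all 3 lines. At the limits of the study itself, a fold change no smaller than 1.5 with an unadjusted p under 0.05, 8, 9 and 7 members were called in the 3 lines, all higher, beside 10.6%, 12.5% and 21.0% of all genes. In bulk libraries fewer cells of a kind and less RNA per cell cannot be told apart.

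The α ring, which both core forms share, rose by up to 1.58-fold. Each of the 7 α subunits rose with cytokines in the Scr line and in the ZIP line, and 6 did so in OE, where Psma3 did not pass (log2 0.15 ± 0.07). Over all genes, 10.5%, 13.6% and 23.0% were higher in Scr, ZIP and OE. Psma5 stood at 37.8, 40.5, 38.2 and 40.6 CPM in Scr and 45.9, 56.4, 57.3 and 58.9 CPM in Scr+Cy, with no overlap (log2 0.48 ± 0.08, edgeR adjusted p = 0.000105). In the ZIP line it went from 33.7, 37.5, 37.1 and 41.3 CPM to 49.4, 58.6, 63.5 and 65.5 CPM (log2 0.66 ± 0.08, 8.23e-07), and in the OE line from 51.0, 52.6, 49.4 and 52.2 CPM to 68.9, 67.4, 71.0 and 76.9 CPM (log2 0.47 ± 0.08, 3.33e-05). Psma3 overlaps an antisense gene (3110056K07Rik), and Psma5 shares 27.5% of its 100-base windows with other loci, so that their reads could have been divided.

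Of the 7 constitutive β subunits, 2 rose in Scr, 4 in ZIP and 1 in OE (28.6%, 57.1% and 14.3%), beside 10.5%, 13.6% and 23.0% of all genes higher. Those that rose in Scr were Psmb4 (log2 0.27 ± 0.06) and Psmb2 (0.30 ± 0.06), which both core forms keep. A split made after the values were seen puts 9, 10 and 7 of the 11 subunits kept in both forms (Psma1 to Psma7 and Psmb1 to Psmb4) among those that rose in Scr, ZIP and OE. It puts 0, 1 and 0 of the 3 replaced subunits there.

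Few genes of the 19S cap passed in Scr. Of the 6 ATPases, 0 passed in Scr, 4 rose in ZIP and 1, Psmc4, fell in OE (log2 −0.18). Of the 14 non-ATPase subunits and chaperones, 2 rose in Scr (Psmd7 and Psmd9), 8 rose in ZIP, and 4 rose and 3 fell in OE. These are 0%, 66.7% and 16.7% of the ATPases and 14.3%, 57.1% and 50% of the 14. Over all genes, 17.8%, 26.4% and 44.6% were called, so that the shares of the 14 in Scr and OE are near those of all genes. The largest difference among these 20 genes was 0.57 on the log2 scale, for Psmd10 in OE. With the replicate number as a block Psmd4 and Psmd14 rose in Scr as well (adjusted p = 0.0338 and 0.0309), and Psmd12 fell in OE (log2 −0.16, 0.0241). Without the block, the 9 members that passed in ZIP and in neither other line were Psmb1, Psmb6, Psmc2, Psmc3, Psmc5, Psmc6, Psmd1, Psmd12 and Psmd14, of which Psmd12 and Psmd14 left that list with it. Since 0 members passed the interaction test, these responses are not shown to differ between ZIP and Scr.

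Psmg4, a chaperone of α ring assembly, had the largest rise outside the inducible genes and Psme2b among members with at least 1 CPM in either group. Its level was 6.45, 6.27, 5.56 and 5.33 CPM in Scr and 12.1, 12.6, 13.7 and 13.6 CPM in Scr+Cy, a 2.20-fold rise (log2 1.14 ± 0.10, edgeR adjusted p = 1.71e-09). It went from 5.93, 5.91, 7.00 and 6.25 CPM to 11.5, 12.7, 14.6 and 14.2 CPM in the ZIP line (log2 1.08 ± 0.10, 5.04e-09), and from 5.11, 5.39, 5.19 and 4.85 CPM to 13.5, 12.6, 15.1 and 16.8 CPM in the OE line (log2 1.5 ± 0.10, 6.65e-12). The libraries overlapped in no line. The 3 other assembly chaperones, Psmg1, Psmg2 and Psmg3, passed in no line, with log2 differences between −0.18 (Psmg1 in Scr) and 0.22 (Psmg3 in ZIP), but with the replicate number as a block Psmg3 rose in ZIP (0.21, adjusted p = 0.0438) and OE (0.19, 0.0422).

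Psmf1, a protein that binds the core and inhibits it in vitro, rose in each line. Its levels were 51.6, 53.8, 52.8 and 49.4 CPM in Scr and 66.9, 69.7, 70.0 and 61.2 CPM in Scr+Cy (log2 0.37 ± 0.05, edgeR adjusted p = 4.98e-06). The rise was 0.51 ± 0.05 in ZIP (2.4e-08) and 0.46 ± 0.05 in OE (5.7e-08). Pomp, the maturation factor needed to build new cores, is no member by symbol but belongs to the pathway. It stood at 53.5, 58.5, 57.4 and 60.8 CPM in Scr and 74.5, 81.4, 84.2 and 85.5 CPM in Scr+Cy, and rose by 0.50 ± 0.07, 0.56 ± 0.07 and 0.53 ± 0.07 in Scr, ZIP and OE (edgeR adjusted p = 1.87e-05, 3.01e-06 and 2.74e-06).

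The activators outside the 11S pair did not rise. Psme3, which forms the nuclear activator ring, passed in no line (log2 0.03 ± 0.05, 0.07 ± 0.05 and 0.06 ± 0.05). Psme4, the large single-chain activator, was at 331, 316, 319 and 288 CPM in OE and 259, 227, 214 and 179 CPM in OE+Cy and fell by 0.51 ± 0.08 on the log2 scale (edgeR adjusted p = 2.05e-05). It did not pass in Scr (−0.07 ± 0.08) or ZIP (−0.17 ± 0.08), and the fall in OE was larger than the difference in Scr (interaction −0.44 ± 0.12, 0.00946).

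**Figure D3:**
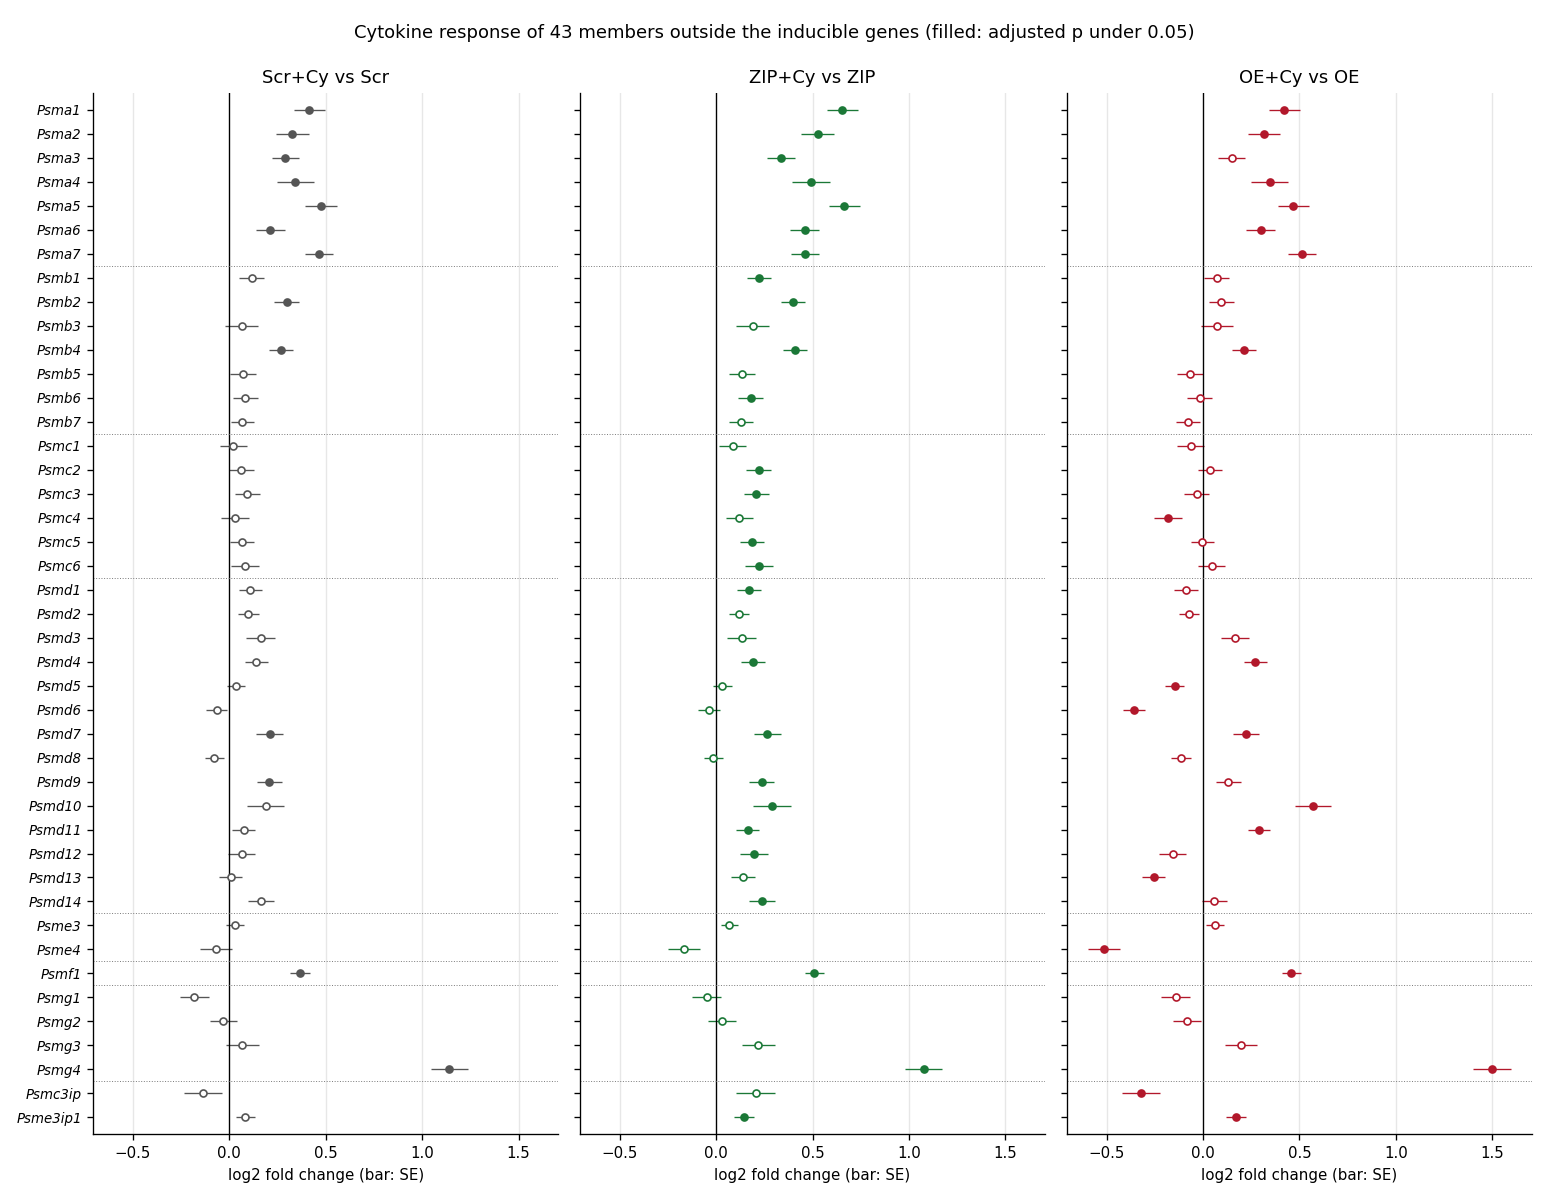
Log2 fold change after cytokines (± standard error) of the 43 members outside the inducible genes, Psme2b and Psmb11, in 1 panel per line, ordered by role, with filled points for adjusted p under 0.05. The α subunits lie to the right of 0 in each panel, Psmg4 lies farthest right (1.14, 1.08 and 1.5), and falls appear in the OE panel, with Psme4 at −0.51 the lowest.

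The 6 members that fell in OE+Cy were Psme4, Psmd6, Psmc3ip, Psmd13, Psmc4 and Psmd5, to which the block adds Psmd12. Psmd6, a lid subunit, stood at 137, 132, 135 and 127 CPM in OE and 110.2, 104, 96.8 and 104 CPM in OE+Cy, with no overlap (log2 −0.36 ± 0.06, edgeR adjusted p = 1.1e-05). Its interaction was −0.29 ± 0.08 (0.0102). Psmd13, another lid subunit, went from 87.6, 83.4, 85.3 and 85.8 CPM to 75.5, 73.0, 65.8 and 72.2 CPM (log2 −0.26 ± 0.06, 0.00122). Its interaction of −0.26 ± 0.09 (0.0318) was lost when any 1 of 8 libraries was left out (Scr 1 and 4, OE 1, 2 and 4, Scr+Cy 3 and 4, and OE+Cy 3; 0.0504 to 0.0666). Psmc3ip fell by 0.32 ± 0.10 (0.0104), and its reads could have been divided with the antisense gene Mlx.

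Psmd10, a chaperone of 19S assembly, rose most among the 19S genes of OE+Cy. It stood at 11.4, 12.5, 12.3 and 13.2 CPM in OE and 16.3, 18, 19.7 and 19.4 CPM in OE+Cy (log2 0.57 ± 0.09, edgeR adjusted p = 2.17e-05), each library with cytokines above each without. The interaction with Scr was 0.38 ± 0.13 (0.0447) and was lost when any 1 of 10 libraries was left out (Scr 3 and 4, OE 1 and 3, and replicates 2, 3 and 4 of Scr+Cy and of OE+Cy; 0.0672 to 0.114). Psmd10 overlaps the antisense gene Atg4a.

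Differences between the lines themselves were sharpest for 2 catalytic genes of OE. Without cytokines, Psmb8 was at 1.48, 1.90, 2.12 and 2.49 CPM in OE against 8.50, 8.74, 11.8 and 8.55 CPM in Scr, which was 4.70-fold lower (log2 −2.23 ± 0.30, edgeR adjusted p = 8.28e-07). Psmb9 was at 0.272, 0.490, 0.552 and 0.557 CPM against 2.40, 2.16, 4.03 and 1.83 CPM, 5.50-fold lower (log2 −2.46 ± 0.33, 1.01e-06). The libraries of both lines did not overlap for either gene. For Psmb10, Psme1 and Psme2 the difference did not pass, with Psme1 at −0.13 ± 0.10 and Psme2 at −0.18 ± 0.10 on the log2 scale and Psmb10 at a mean of 3.53 ± 0.344 CPM in OE and 3.55 ± 0.760 CPM in Scr (SD, n = 4).

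Most constitutive subunits were higher in OE than in Scr. Over all 50 members, 25 were higher and 7 lower, where 50.1% of all genes were called (24.5% higher and 25.6% lower). Outside the inducible genes the median log2 difference was 0.22, beside 0.00 over all genes. At the study's limits 3 members were called, Psmb8, Psmb9 and Psme4, beside 25.7% of all genes. By role, 6 of 7 α subunits, 4 of 7 constitutive β subunits, 5 of 6 ATPases and both other activators were higher, as were 8 of 14 non-ATPase subunits with 2 lower, whereas 2 of 4 assembly chaperones were lower.

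Psme4 had the largest difference among these. It was at 192, 202, 207 and 209 CPM in Scr and 331, 316, 319 and 288 CPM in OE, 1.55-fold higher (log2 0.63 ± 0.08, edgeR adjusted p = 8.79e-07). Of the replaced catalytic subunits, Psmb6 was at 122, 118, 115 and 126 CPM in OE against 86.1, 86.2, 89.7 and 86.6 CPM in Scr (log2 0.46 ± 0.06, 1.68e-06), and Psmb5 at 79.8, 74.1, 68 and 71.5 CPM against 63.2, 60.8, 54.2 and 50.7 CPM (log2 0.36 ± 0.07, 8.66e-05). Psmb7 was not, at 119, 104, 102 and 107 CPM against 96.4, 111, 113 and 110.5 CPM. In OE without cytokines, then, Psmb5 and Psmb6 were higher while their replacements Psmb8 and Psmb9 were lower. Psmd4, a receptor for ubiquitin chains, was higher by 0.37 ± 0.06, Psmd3 by 0.36 ± 0.07, Psma5 by 0.39 ± 0.08 and Psmd11 by 0.31 ± 0.06 (edgeR adjusted p = 1.05e-05, 0.000203, 0.000296 and 7.97e-05).

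Psmd1, a scaffold subunit of the 19S base, went the other way. It stood at 169, 208, 203 and 201 CPM in Scr and 145, 148, 144 and 150.5 CPM in OE (log2 −0.41 ± 0.06, edgeR adjusted p = 5.73e-06), with no overlap. Psmd1 encloses the antisense gene Htr2b. Psmg1 was lower by 0.21 ± 0.07 (0.0248), a call lost without Scr replicate 1, 2 or 3 or OE replicate 2 (0.0530 to 0.0747). Psme3 was higher by 0.11 ± 0.05 (0.0487), which did not hold without Scr replicate 1 or 2 or any 1 of the OE libraries (0.0615 to 0.163).

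The ZIP line differed from Scr in few members. Without cytokines, 0 of 50 were higher and 5 lower, beside 28.3% of all genes called (13.5% higher and 14.8% lower). Psmb8 alone was called at the study's limits, beside 14.9% of all genes. With the replicate number as a block, 9 were lower, the added ones being Psma6, Psmc3, Psmc3ip and Psme2b. The count was 3 without Scr replicate 2 or 3 or ZIP replicate 2, 2 without ZIP replicate 1 or 3, and 9 without ZIP replicate 4. Psmb8, at 3.15, 2.74, 3.44 and 10.5 CPM in ZIP and 8.50, 8.74, 11.8 and 8.55 CPM in Scr, was 1.88-fold lower (log2 −0.91 ± 0.26, edgeR adjusted p = 0.0108), although ZIP replicate 4 lay within the range of Scr. Without that library the log2 difference was −1.59 (1.14e-07), and in a fit of both groups alone it did not pass (−0.92, 0.0780).

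Psme1 was lower in ZIP by 0.29 ± 0.10 on the log2 scale (edgeR adjusted p = 0.0367), a call lost without Scr replicate 1 or 3 or ZIP replicate 1, 2 or 3 (0.0543 to 0.172). Psmd12, a lid subunit, was lower by 0.20 ± 0.07 (0.0377), a call lost without Scr replicate 2, 3 or 4 or ZIP replicate 1 or 3 (0.0845 to 0.15). Psmg1 was lower by 0.20 ± 0.07 (0.0499) and lost its call without any 1 of replicates 1, 2 and 3 of either group (0.0506 to 0.136). These 3 differences were thus near the limit of the test, whereas the fifth, Psme3ip1, was not.

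Psme3ip1 was lower in both lines. It stood at 43.5, 43.8, 43 and 43.8 CPM in Scr, 27.7, 31.0, 31.1 and 30.8 CPM in ZIP and 30.0, 30.3, 31.1 and 33.9 CPM in OE, with no overlap with Scr (log2 −0.53 ± 0.05 in ZIP and −0.47 ± 0.05 in OE, edgeR adjusted p = 1.68e-08 and 3.23e-08). Its neighbours on chromosome 8 moved with it. Of the 37 genes within 5 Mb with a mean of at least 10 CPM, 37 had a lower estimate in ZIP than in Scr (median log2 difference −0.52) and 33 in OE (−0.60). The other members on that chromosome, Psmb10 and Psmd7, had neighbours with medians between −0.03 and 0.06. The part of the region in the level of Psme3ip1 was not tested.

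**Figure D4:**
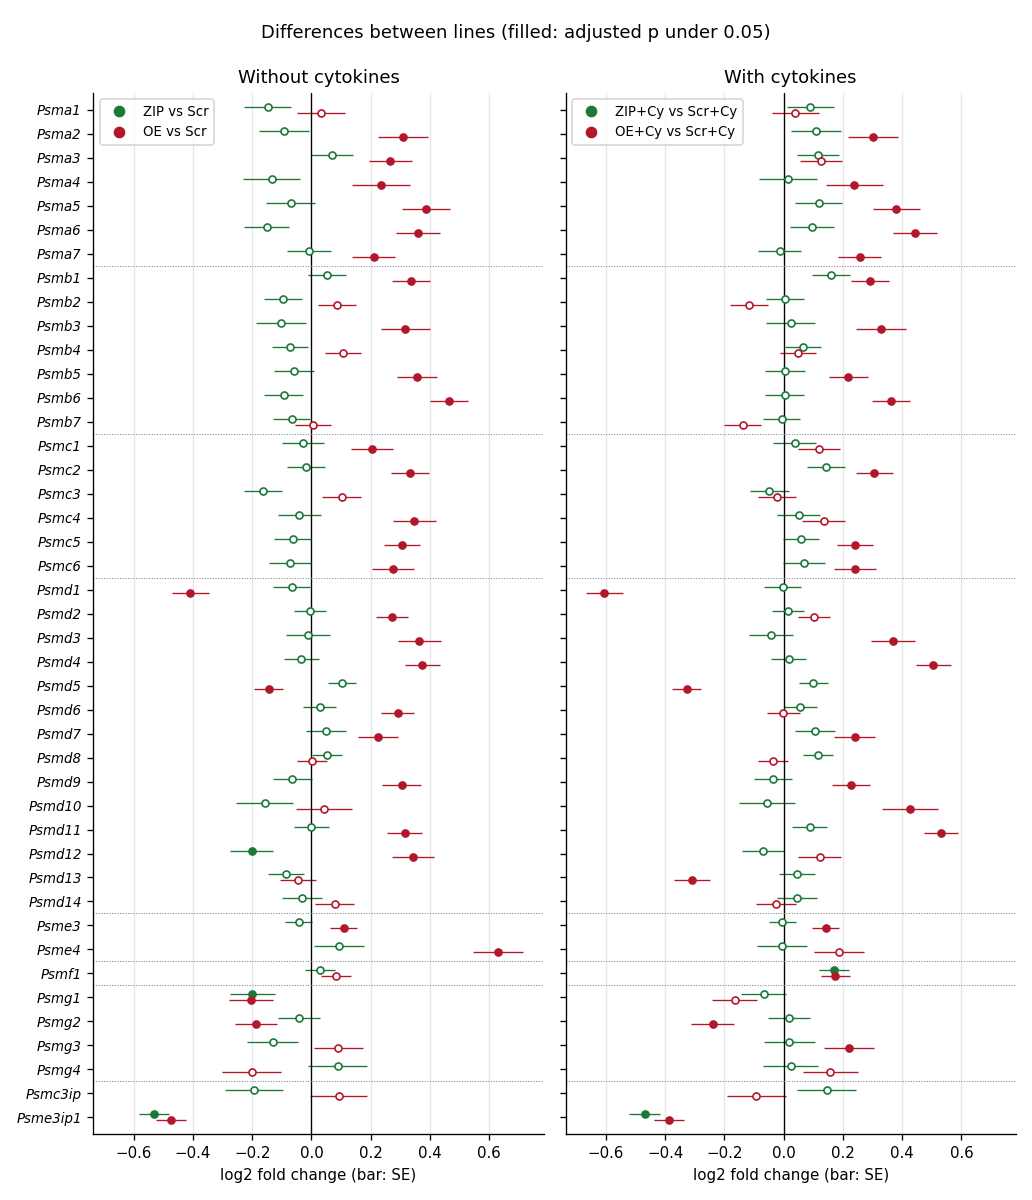
Log2 difference (± standard error) of ZIP and of OE from Scr for the same 43 members, without cytokines and with cytokines, with filled points for adjusted p under 0.05. In OE most points lie to the right of 0, with Psme4 at 0.63 the highest without cytokines and Psmd1 at −0.41 and −0.60 and Psme3ip1 at −0.47 and −0.39 to the left.

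With cytokines, the low start of Psmb8 and Psmb9 in OE was no longer seen. Psmb8 stood at 373, 405, 440.0 and 529 CPM in OE+Cy and 316, 375, 392 and 373 CPM in Scr+Cy (log2 0.26 ± 0.20, edgeR adjusted p = 0.289, or 0.0474 in a fit of both groups alone). Psmb9 stood at 115, 130.0, 161 and 179.6 CPM and 126, 131, 138 and 142 CPM (log2 0.12 ± 0.14, 0.488). The groups overlapped for both genes. The other 3 inducible genes were higher in OE+Cy, Psmb10 at 215, 208, 243 and 279 CPM against 138, 167, 181 and 161 CPM (log2 0.55 ± 0.15, 0.0031). Psme1 was at 220.2, 242, 284 and 299.6 CPM against 162, 185, 206 and 192 CPM (log2 0.49 ± 0.09, 9.66e-05), and Psme2 at 88.9, 91.7, 97.1 and 109 CPM against 55.1, 68.4, 73.3 and 69.9 CPM (log2 0.54 ± 0.09, 1.56e-05).

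Over all 50 members, 25 were higher and 6 lower in OE+Cy than in Scr+Cy, beside 53.4% of all genes called (26.0% higher and 27.4% lower). Called at the study's limits were 2, Psmb11 and Psmd1, both lower, beside 28.5% of all genes. Psmd11, a lid subunit, was the highest outside the inducible genes, at 79.1, 83.4, 80.9 and 77.2 CPM in OE+Cy and 53.3, 55.9, 56.5 and 56.2 CPM in Scr+Cy (log2 0.53 ± 0.06, edgeR adjusted p = 4.23e-08). Psmd4 followed, at 115, 118, 109.9 and 125 CPM against 78.6, 83.3, 85.3 and 82.2 CPM (log2 0.50 ± 0.06, 1.22e-07). Psmd1 was again lower, at 144, 146, 128 and 136 CPM against 195, 223, 215 and 209.8 CPM (log2 −0.60 ± 0.06, 1.36e-08). Psmd5, a chaperone of 19S assembly, was lower by 0.33 ± 0.05 (3.4e-06) and Psme3ip1 by 0.39 ± 0.05 (7.67e-07). Psme4 was no longer called (0.19 ± 0.08, 0.0636), although it passed without OE+Cy replicate 4 (0.28, 0.00374) and in DESeq2 (0.21, 0.0272). Psmb7 (−0.14 ± 0.06, 0.0647) passed without Scr+Cy replicate 1 or OE+Cy replicate 1.

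Between ZIP+Cy and Scr+Cy, 1 member was higher and 1 lower, beside 28.1% of all genes called (12.9% higher and 15.1% lower). The higher one was Psmf1, at 73.9, 75.9, 78.8 and 72.6 CPM against 66.9, 69.7, 70.0 and 61.2 CPM (log2 0.17 ± 0.05, edgeR adjusted p = 0.012), a call lost without Scr+Cy replicate 4 (0.0622). The lower one was Psme3ip1 (−0.47 ± 0.05, 1.24e-07). With the replicate number as a block 4 were called, adding Psmb1 and Psmc2, and DESeq2 called 5. Psmb11 alone was called at the study's limits, as lower, beside 15.8% of all genes. It held 34 reads in Scr+Cy replicate 1 and 0 to 3 reads in each ZIP+Cy library. Without ZIP+Cy replicate 1 the count of members called at the adjusted limit was 6, and without ZIP+Cy replicate 2 it was 4. Psmb8 was at 248, 288, 293 and 317 CPM in ZIP+Cy (log2 −0.35 ± 0.20 against Scr+Cy, 0.225, or 0.0113 in a fit of both groups alone), and the other inducible genes did not pass.

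Psme2 and its retrocopy Psme2b, on chromosome 11, could not be separated fully, because 44.5% of the 100-base windows of Psme2 and 52.0% of those of Psme2b are the same. Psme2b stood at 44.5, 48.8, 46.4 and 42.2 CPM in Scr and 230.4, 289.7, 291 and 283 CPM in Scr+Cy, and 18.8% to 23.2% of the sum of both was assigned to Psme2 in each library. The rises of Psme2b were 2.59 ± 0.09, 2.87 ± 0.09 and 3.27 ± 0.09 in Scr, ZIP and OE, close to those of Psme2 itself. Summed, both genes went from 57.2 ± 3.11 to 340.2 ± 36.8 CPM in Scr, from 50.8 ± 4.10 to 366 ± 41.2 CPM in ZIP and from 50.3 ± 1.5 to 483 ± 46.1 CPM in OE (SD, n = 4). The response of Psme2b in OE was larger than that in Scr by 0.68 ± 0.12 (edgeR adjusted p = 0.000305).

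Psmb11, the catalytic subunit of thymus, was singled out after its values were seen. It held 34 reads in Scr+Cy replicate 1 and 0 to 3 reads in each other library, with 0 in all 4 Scr libraries, and it passed in Scr+Cy against Scr (edgeR adjusted p = 0.0226) and in OE+Cy against Scr+Cy (0.0353). Without that 1 library the values were 0.482 and 0.842. Leaving out another library also ended these calls in 1 and 3 instances, and DESeq2 did not call the second (0.198). Psmb11 is counted among the 20 members that rose in Scr, the 8 called there at the study's limits and the 6 lower in OE+Cy.

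Of the wider pathway, lists were read beside the members. All 7 genes of the class I peptide path (Tap1, Tap2, Tapbp, Tapbpl, Erap1, B2m and Nlrc5) rose in each line, as did Irf1. Over all genes, 10.5%, 13.6% and 23.0% were called higher with cytokines in Scr, ZIP and OE. In OE against Scr without cytokines 5 of those 7 were lower, including Tap1 by 1.44 on the log2 scale, and with cytokines 0 were lower and 3 higher, beside 50.1% and 53.4% of all genes called. Of 18 proteasome partners, such as the shuttle receptor Ubqln2 and the deubiquitinase Usp14, 2 rose and 2 fell in Scr, 3 rose and 2 fell in ZIP, and 4 rose and 8 fell in OE. These are 22.2%, 27.8% and 66.7% of the list, beside the 17.8%, 26.4% and 44.6% of all genes called. Of 5 genes of the NRF1 axis, which is known to set transcription of proteasome genes, 1 rose in Scr, 2 in ZIP, and 2 rose and 2 fell in OE, 20%, 40% and 80% of that list. Nfe2l1, the gene of NRF1, rose by 0.81 ± 0.08 in OE and 0.29 ± 0.08 in ZIP, and did not pass in Scr (0.05 ± 0.08). In OE it was the highest of the 5, which reached down to −0.82 and had a median log2 fold change of −0.06.

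Markers of the cells differed from Scr in both other lines. The summed β cell markers ranged from 22833 to 30081 CPM in Scr, from 31820 to 34415 CPM in ZIP and from 46702 to 50403 CPM in OE. Of the 8, 6 were higher and 1 lower in ZIP than in Scr, where 28.3% of all genes were called. In OE 4 were higher and 3 lower than in Scr, where 50.1% of all genes were called. With cytokines the sums ranged from 24635 to 26562 CPM in Scr+Cy, from 29185 to 33164 CPM in ZIP+Cy and from 29379 to 38341 CPM in OE+Cy, where 7 of 8 fell from OE, beside 44.6% of all genes called in either direction (21.5% lower). Against Scr+Cy, 5 were higher and 0 lower in ZIP+Cy, and 3 higher and 4 lower in OE+Cy, beside 28.1% and 53.4% of all genes called. The summed other islet hormones (Gcg, Sst and Ppy) ranged from 246 to 369 CPM in Scr and from 45.9 to 56.0 CPM in OE, with Ppy at 0 in Scr, and from 8.94 to 34.7 CPM in OE+Cy. Although the sum was lower, 2 of these 3 genes were called higher and 1 lower in OE than in Scr, and likewise in OE+Cy against Scr+Cy. The part of these markers in the differences of the proteasome genes between OE and Scr was not tested.

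Since 2 of the lines carry constructs for miR-146a-5p, matches to its seed were read in the 3′ untranslated regions of the members. The mature sequence from RefSeq (GRCm38.p6, chr11:43374435-43374456, minus strand) and the matches found are shown, with bases 2 to 8 or their match in capitals.
miR-146a-5p: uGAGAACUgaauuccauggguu
Psmd11: ataggcggccAGTTCTCatgtaatccg
Psmd3: aacaataaaaAGTTCTCcagag
A match was present in 2 of 50 members, or 4.0%, beside 2461 of 21875 genes, or 11.25%. Psmd11 was at 48.7, 55.1, 55.8 and 51.1 CPM in Scr, 50.1, 49.7, 51.8 and 59.1 CPM in ZIP and 67.1, 67.3, 64.1 and 63.4 CPM in OE. Psmd3 was at 104, 110.0, 101 and 89.7 CPM in Scr, 96.6, 98.6, 97.1 and 108 CPM in ZIP and 139, 135, 126 and 121 CPM in OE. Both were higher in OE than in Scr, as given above, and neither passed in ZIP.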

How the data were processed

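The authors deposited estimated counts per gene, not normalized, for 24 libraries in 6 groups of 4, made with the KAPA mRNA HyperPrep kit. According to the study's methods, reads were aligned to mm10 with STAR, assigned to RefSeq Transcripts 96 in Partek Flow, and genes under 10 reads in total were removed. The submitters' processing notes name STAR 2.7.8a, Partek 11.0.24.0204, FastQC and DESeq2. The use of strand is not given in the sources used here, so that overlapping, antisense and near-identical genes are uncertain. A normalized file, the same counts divided by a factor per library, was not used.

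Of the estimated counts, 30.3% were not whole and were rounded. A model with 6 group means was fitted to all 24 libraries and 17696 genes in edgeR 4.0.16 (R 4.3.3) with TMM scaling and tested with glmQLFTest, with Benjamini-Hochberg adjustment over all genes of a comparison. The standard error is the log2 fold change divided by the square root of F. The test was tried on simulated counts with known changes. Depth limits low levels, of which counting error is only 1 part.

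The members and lists were chosen with earlier results of these data known. Named members are the inducible 5, Psmb5, Psmb6, Psmb7, Psme3, Psme4, Psmf1, Pomp and, in each comparison, the 3 largest called rises and 3 largest called falls of other members with at least 1 CPM in either group. Members named beyond these were chosen after their values were seen. Shared windows were counted over 100-base stretches of annotated transcripts.

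Labels give the groups shared replicate numbers. Whether these pair the libraries was checked from deviations from group means over 12670 genes. Every correlation was over 0.1 between a line and itself with cytokines (0.413 to 0.626 in Scr, 0.261 to 0.397 in ZIP and 0.162 to 0.455 in OE), between Scr and ZIP (0.141 to 0.634) and between Scr+Cy and ZIP+Cy (0.191 to 0.370), so these met the check. It was not met between Scr and OE (−0.129 to 0.295) or Scr+Cy and OE+Cy (0.000631 to 0.165). The main model holds no replicate block, so its calls and p-values are unpaired in every comparison. Alternatives were DESeq2 1.42.0, the median ratio size factors within edgeR, filterByExpr, a separate fit for each comparison, a replicate block, the study's limits and leaving out each library.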

Additional observations from a re-analysis of the deposited data

Results flagged for a closer look

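In 9 of the 90 groups of 4 values examined, 1 library lay far from the other 3 for its group's range (Dixon's test, which chance meets in about 1 in 20 groups). ZIP replicate 4 was high for Psmb8 (10.5 CPM, the others 2.74 to 3.44 CPM), Psmb10 (7.16 CPM, the others 3.13 to 3.28 CPM), Pomp (68.2 CPM, the others 53.2 to 55.4 CPM) and the log2 ratio of Psmb10 to Psmb7 without length correction (−3.94, the others −5.03 to −4.95). Scr replicate 3 was high for Psmb8 (11.8 CPM, the others 8.50 to 8.74 CPM) and Psmb6 (89.7 CPM, the others 86.1 to 86.6 CPM). Scr replicate 1 was low for Psmb7 (96.4 CPM, the others 110.5 to 113 CPM). Scr+Cy replicate 1 was low for Psmb7 (105 CPM, the others 115 to 116 CPM) and for the log2 ratio of Psmb8 to Psmb5 (2.44, the others 2.63 to 2.66).

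The cytokine response differed between OE and Scr for 9 members by the interaction test in edgeR. The rise was larger in OE for Psmb8 (2.49 ± 0.36 on the log2 scale, adjusted p = 4.33e-05), Psmb9 (2.58 ± 0.36, adjusted p = 3.21e-05), Psme1 (0.62 ± 0.14, adjusted p = 0.00223), Psme2 (0.72 ± 0.13, adjusted p = 0.000504), Psme2b (0.68 ± 0.12, adjusted p = 0.000305) and Psmd10 (0.38 ± 0.13, adjusted p = 0.0447). The difference was negative, with a fall in OE and no call in Scr, for Psme4 (−0.44 ± 0.12, adjusted p = 0.00946), Psmd6 (−0.29 ± 0.08, adjusted p = 0.0102) and Psmd13 (−0.26 ± 0.09, adjusted p = 0.0318). Without Scr+Cy replicate 1, the values of Psmb8, Psmb9, Psme1 and Psme2 were 2.43, 2.55, 0.56 and 0.64. Psmb8 and Psmb9 started lower in OE than in Scr (log2 −2.23 and −2.46), and with cytokines their difference between the lines was not called.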

How the results depend on the processing

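At the study's limits (fold change no smaller than 1.5, unadjusted p under 0.05), 8 members were called in Scr+Cy against Scr, 9 in ZIP+Cy against ZIP, 7 in OE+Cy against OE, 1 in ZIP against Scr, 3 in OE against Scr, 1 in ZIP+Cy against Scr+Cy, 2 in OE+Cy against Scr+Cy and 5 in the OE interaction. In a fit of only the groups compared, 3 members were called in ZIP against Scr, and DESeq2 called 5 in ZIP+Cy against Scr+Cy. With the replicate number as a block, 9 were called in ZIP against Scr and 4 in ZIP+Cy against Scr+Cy, and no other count moved by more than 1.5 times (22, 34, 28, 34, 31 and 13 members in Scr+Cy, ZIP+Cy and OE+Cy against their own line, OE against Scr, OE+Cy against Scr+Cy and the OE interaction, and 0 in the ZIP interaction). OE against Scr and OE+Cy against Scr+Cy share replicate numbers and a sample prefix whose meaning no source gives, but did not meet the pairing check. Their block counts of 34 and 31 stand beside 32 and 31, with Psme2 (−0.18, adjusted p = 0.0475) and Psme2b (−0.19, 0.0316) gained in the first, and Psme4 gained (0.18, 0.0499) and Psmb11 lost (−3.14, 0.0708) in the second. In the OE interaction the block added Psmd11, Psmd12, Psmd5 and Psmg4 (0.0247 to 0.0462), and in ZIP+Cy against ZIP it added Psmc3ip (0.0356).

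Leaving out each library in turn gave 16 to 20 members in Scr+Cy against Scr, 19 to 36 in ZIP+Cy against ZIP, 24 to 28 in OE+Cy against OE, 2 to 9 in ZIP against Scr, 28 to 32 in OE against Scr, 2 to 6 in ZIP+Cy against Scr+Cy, 29 to 33 in OE+Cy against Scr+Cy, 0 to 1 in the ZIP interaction and 7 to 10 in the OE interaction. The 5 inducible genes kept their calls in each of these fits after cytokines in all 3 lines. Of the differences of single genes under the alternatives, 1993 stayed on the same side of the threshold, some changing sign where neither fit called the gene. A further 69 lost the call, 13 gained one, and 1 that was called in the main fit changed sign. That was Psmb11 in OE+Cy against Scr+Cy without Scr+Cy replicate 1 (0.44, the lowest value on leaving out any 1 library being −4.24). The causes were not tested. Depth limits Psmb9 in OE and Psmb11, which had under 10 reads in at least 1 library.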
